A study of Mus musculus with 16 samples.

Results

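Splicing regulators and neuronal RNA-binding proteins were examined in mouse cerebral cortex lacking FMRP, CPEB1 or both. The 59 genes were taken by symbol from the 20436 genes of the deposited tables, as every gene named Srsf, Hnrnp, Ptbp1 to Ptbp3, Rbfox1 to Rbfox3, Nova1, Nova2, Celf1 to Celf6, Mbnl1 to Mbnl3, Elavl1 to Elavl4 or Pabpc with a number. They comprise 11 Srsf, 20 Hnrnp, 3 Ptbp, 3 Rbfox, 2 Nova, 6 Celf, 3 Mbnl, 4 Elavl and 7 Pabpc genes. A filter on low counts left 54 of them in the RNA data, 55 in the footprint data and 54 in both.

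All mice, FVB.129P2-/Pde6b+ Tyr c-ch //AntJ by strain, were 28 to 35 days old. The 4 genotypes were wild type (WT), mice without Fmr1, mice without Cpeb1, and mice without both genes, called below the Fmr1 knockout, Cpeb1 knockout and double knockout. Fmr1 encodes FMRP, the protein lost in fragile X syndrome, and Cpeb1 encodes a protein that binds the cytoplasmic polyadenylation element of mRNAs. Cytoplasmic lysate of cortex was divided between RNA-seq, which read fragments of rRNA-depleted RNA, and ribosome profiling, which read the fragments protected by ribosomes (footprints). The homogenate held the translation inhibitors cycloheximide and harringtonine, and footprints were taken from monosomes after digestion with RNase A and RNase T1, per the labels' protocols. Each genotype had 2 libraries of each assay, numbered 1 and 2, or 16 in all. The labels do not say whether libraries 1 and 2 came from separate animals, or how many animals made a library, so p-values measure only the spread between these libraries.

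SR proteins (Srsf) bind exons and promote their inclusion in mRNA, while hnRNP proteins coat the nascent transcript and often oppose inclusion. PTBP, RBFOX, NOVA, CELF and MBNL proteins switch exons on or off by binding short motifs beside them, and together set the splicing programme of neurons. ELAVL (Hu) proteins bind AU-rich stretches and stabilise or translate mRNAs, and cytoplasmic poly(A)-binding proteins (Pabpc) sit on the tail that CPEB1 helps to lengthen. Many of these proteins also bind their own transcripts.

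The libraries held 5423925 to 10246482 estimated counts in RNA-seq and 16239703 to 24973757 in footprints, of which these genes took 0.642% to 0.73% and 1.09% to 1.16%. Fmr1 stood at 87 to 116 CPM (counts scaled to library size) of RNA where it was intact and at 18.4 to 25.9 where it was knocked out. Cpeb1 footprints stood at 33.4 to 36.7 CPM where it was intact and at 7.3 to 7.73 where it was knocked out. Cpeb1 RNA was 27.6 to 43.9 CPM where intact and 16 to 19.7 where knocked out. The targeted genes thus followed the labels in every library. None of the 10 neuron markers examined was at 0, and their summed RNA level was 6040 to 6590 CPM.

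In WT cortex these genes were expressed above the typical gene. Levels were compared between genes as TPM, the authors' length-scaled unit. The median RNA level in WT was 117 TPM over the 54 genes tested and 31.7 TPM over all 13287 genes tested. The hnRNP family held the highest level, with Hnrnpk, which binds C-rich stretches, at 502 TPM, Hnrnpa2b1 at 381 and Hnrnpu, a nuclear scaffold protein, at 354. The lowest hnRNP was Hnrnph3 at 32.9 TPM, and the family median was 174.

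Among the neuronal regulators, Rbfox1 stood at 258 TPM of RNA, Rbfox2 at 180 and Rbfox3, known as the neuron marker NeuN, at 148. The Celf genes ran from 29.5 TPM for Celf6 to 350 for Celf2, with Celf4 at 286. Nova1 and Nova2 were level with each other, at 64.1 and 64.3 TPM. The Ptbp genes were spread widely. Ptbp2, the neuronal member, stood at 160 TPM, against 14.3 for Ptbp1, which neurons are known to shut off, and 20 for Ptbp3. Elavl genes ran from 91.8 TPM for Elavl4 to 174 for Elavl3, and Mbnl2 was at 195 against 81.5 for Mbnl1.

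SR protein genes lay lower than hnRNP genes, with a family median of 85.1 TPM. Srsf5 was the highest at 246 and Srsf12 the lowest at 19.2. Of the poly(A)-binding proteins, Pabpc1 stood at 140 TPM, Pabpc4 at 11.2 and Pabpc5, an X-linked gene, at 7.54. The other 4 Pabpc genes (Pabpc1l, Pabpc2, Pabpc4l and Pabpc6) and Mbnl3 were at 0.525 TPM of RNA or below in WT and were not tested in RNA.

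**Figure D1:**
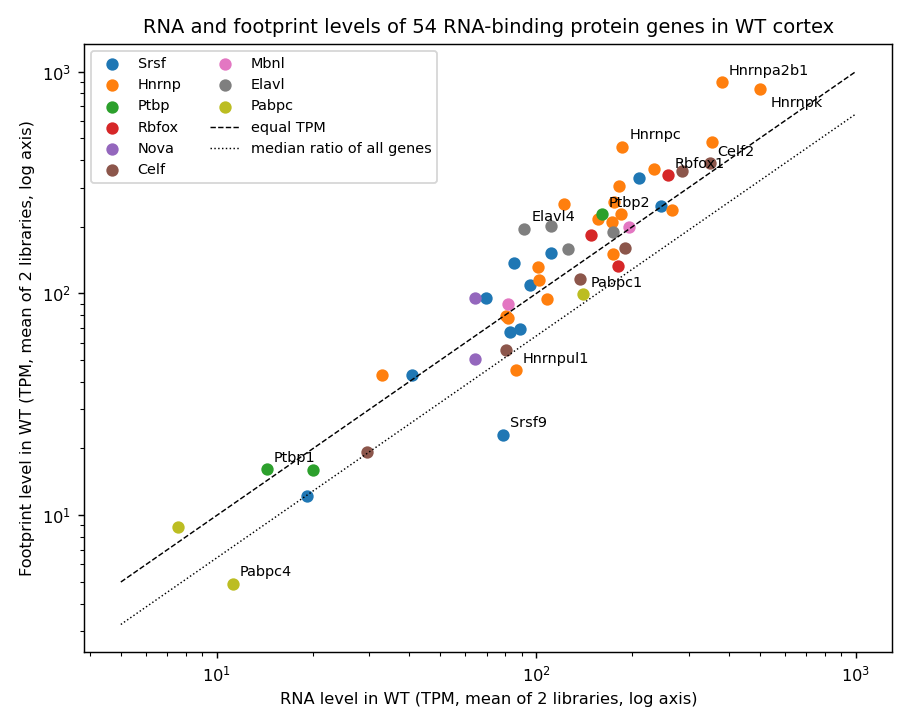
RNA level (x axis) against footprint level (y axis) in WT cortex for the 54 genes tested in both assays, in TPM on log axes, each point the mean of 2 libraries and coloured by family. Hnrnpk (502 RNA, 835 footprints) and Hnrnpa2b1 (381 and 895) lie at the top, most points lie above the dotted line that marks the median ratio of all genes, and Srsf9 and Pabpc4 lie below it. The dashed line marks equal TPM.

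In WT, most of these genes carried more ribosome footprints per RNA than the average gene. Footprints per RNA were tested in edgeR as the footprint level against the RNA level in WT, with each assay's feature length in the model. In both assays 99.6% of the 15716 genes with a single transcript had a length that is a multiple of 3, so the features appear to hold coding sequence without UTRs. TPM levels and footprints per RNA are thus per feature length, not per full transcript. Footprint features were mostly the shorter ones, at 435 nt against 492 in RNA for Srsf3, while Hnrnpul1 went the other way. The 2 assays were therefore not counted over exactly the same stretches. The value is relative to the average gene and not an absolute rate. The median was 0.896 on the log2 scale over the 54 genes and 0.078 over all 13027 genes tested. In edgeR's quasi-likelihood test with Benjamini-Hochberg adjustment over all genes, 47 of the 54 were called higher and 2 lower at an adjusted p under 0.05. Over all genes, 37.2% were called higher and 32.1% lower.

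By family the median was highest for Elavl, at 1.311, followed by hnRNP at 1.111. The hnRNP values varied with the library number in WT. Their median difference, library 2 minus library 1 on the log2 scale, was -0.437 in RNA and -0.002 in footprints. For Hnrnpa2b1 the log2 ratio of footprint to RNA TPM was 0.915 in library 1 and 1.603 in library 2. The highest gene was Hnrnpc, whose protein binds U-rich stretches, at 2.018 ± 0.124 (SE; edgeR, adjusted p = 6.37e-10), a 4.05-fold excess. Its RNA stood at 120 and 104 CPM in WT libraries 1 and 2 and its footprints at 380 and 353 CPM. Hnrnpa2b1 followed at 1.977 ± 0.182 (edgeR, adjusted p = 6.21e-08) and among hnRNP genes Hnrnpd, known as AUF1, came next at 1.755 ± 0.119 (edgeR, adjusted p = 1.89e-09). In all, 19 of the 20 hnRNP genes were called higher. Hnrnpul1, the exception, stood at -0.227 ± 0.109 and was not called (edgeR, adjusted p = 0.0745).

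The 4 Elavl genes were all called higher. Elavl4 reached 1.807 ± 0.101 (edgeR, adjusted p = 2.45e-10), with RNA at 72.4 and 65.1 CPM and footprints at 199 and 200 CPM. Elavl1, the member made in most tissues, stood at 1.578 ± 0.109 (edgeR, adjusted p = 2.37e-09). The 3 Rbfox, 3 Ptbp, 2 Nova and 2 tested Mbnl genes were likewise called higher, led by Nova2 at 1.271, Ptbp2 at 1.218 and Rbfox1 at 1.112. Of the 6 Celf genes 4 were called higher, with Celf4 the highest at 1.016, and Celf3 (0.186) and Celf6 (0.099) were not called.

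SR protein genes ran from the upper range to the lowest value. Of the 11, 9 were called higher, led by Srsf7 at 1.4 ± 0.125 (edgeR, adjusted p = 4.42e-08). Srsf9 was called lower, at -1.056 ± 0.157 (edgeR, adjusted p = 1.48e-05). Its RNA stood at 34.1 and 34.5 CPM in WT and its footprints at 12.6 and 13.3 CPM. Pabpc4 was the other gene called lower, at -0.5 ± 0.174 (edgeR, adjusted p = 0.0173), with RNA at 16.2 and 13.9 CPM and footprints at 8.03 and 9.86 CPM, and with an adjusted p of up to 0.225 over the alternatives tried. Pabpc1, the main cytoplasmic poly(A)-binding protein, stood at 0.211 and was not called.

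**Figure D2:**
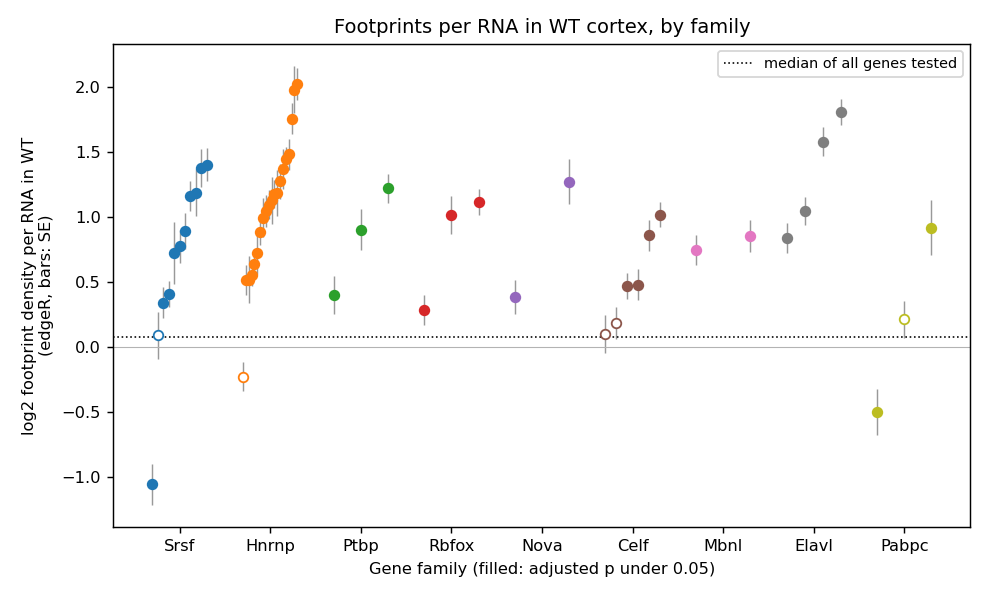
Footprint density per RNA in WT cortex (log2, edgeR estimate, bars show the SE) for each gene, grouped by family, with filled points for genes at an adjusted p under 0.05 and the dotted line at the median of all genes tested (0.078). Nearly all points lie above the line, up to Hnrnpc at 2.018, while Srsf9 lies at -1.056 and Pabpc4 at -0.5.

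RNA level, length and shared reads were read beside this value. Other genes within the middle range of these genes' RNA level, 80.6 to 183 TPM in WT, had a median of 0.242, and 48.6% of those were called higher. Other genes that also fell in the middle range of feature length, 988 to 1513 nt, had a median of 0.32, and 52.9% were called higher. Estimated counts that are not whole numbers mark reads that fit more than 1 gene and were divided between them. Of the 59 genes, 32 had such counts in all 8 footprint libraries and 5 in all 8 RNA libraries. Among genes tested, the 32 had a median of 1.016 and the other 22 a median of 0.813. Mean fragments were 29.6 to 30.4 nt in footprints and 36.7 to 37 nt in RNA-seq. Their part in the result was not tested beyond these medians. On the ratio of deposited TPM values, the median of all genes lay at -0.643 and -0.628 in libraries 1 and 2, and 51 and 48 of the 54 genes lay above it.

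Most other splicing genes examined stood on the same side, beside 37.2% of all genes called higher and 32.1% lower. Of 50 core spliceosome genes 42 were called higher and 4 lower, with a median of 0.779. Of 41 other splicing regulators tested 28 were called higher and 3 lower, with a median of 0.649. The 7 SR protein kinases, which phosphorylate SR proteins, gave a median of -0.525, with 0 called higher and 3 lower, namely Clk4 at -1.624, Clk1 at -1.315 and Clk3 at -0.545. High values were not particular to splicing genes. Of 10 neuron markers 8 were called higher and 1 lower, with a median of 1.148. Astrocyte and oligodendrocyte markers gave medians of 0.885 and 1.395, with 7 of 8 called higher in each. Microglia markers gave 0.481, with 2 of 8 called higher, and endothelial markers -0.194, with 1 of 7 higher and 2 lower.

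Against WT, no gene of the group was called in RNA in any knockout in edgeR. In edgeR's quasi-likelihood test 0 of 54 genes passed for the Fmr1, Cpeb1 and double knockouts, where 0.00753%, 0% and 0.00753% of all genes were called. At an unadjusted p under 0.05 there were 6, 8 and 6 genes, beside 8.09%, 11% and 4.23% of all genes. DESeq2 likewise called 0 in each. The authors' deposited table called 1 of 56 genes on Cpeb1 loss, Celf3 at -0.401, beside 0.961% of all genes, and those for Fmr1 loss and loss of both called 0. The median changes were 0.049, -0.006 and 0.013 on the log2 scale. The 3 comparisons share the WT libraries.

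The genes of smallest p stood as follows. On Fmr1 loss Hnrnph1 was at 0.398 ± 0.103 (SE; edgeR, adjusted p = 0.526) and Celf6 at 0.393 ± 0.151, against Celf2 at -0.274 ± 0.146 and Elavl3 at -0.242 ± 0.13. On Cpeb1 loss Hnrnph1 was at 0.333 ± 0.104 (edgeR, adjusted p = 0.331) and Hnrnph2 at 0.317 ± 0.115, against Celf3 at -0.579 ± 0.151 (adjusted p = 0.265) and Nova2 at -0.614 ± 0.217 (adjusted p = 0.391). The next comparison uses these same libraries again, so a gene that recurs in it is not a separate line of evidence. With both genes lost Ptbp1 was at 0.561 ± 0.19 and Celf5 at 0.33 ± 0.119, against Elavl2 at -0.296 ± 0.114 and Hnrnpd at -0.321 ± 0.132, each with an adjusted p of 0.966 in edgeR.

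Differences appeared when the single knockouts were set against the other genotypes. The authors deposited this comparison for RNA, setting the Fmr1 and Cpeb1 knockouts together against WT and the double knockout together. It compares the means of the groups, so a double knockout that departs from WT the other way adds to it, as for Celf5, which in the double knockout stood 0.33 ± 0.119 above WT. In the single knockouts Nova2, Celf3, Celf5 and Celf2 were lower and Srsf10, Hnrnph1 and Hnrnph2 were higher. These 7 of 54 genes were called in edgeR, beside 7.31% of all genes tested, and 20 had an unadjusted p under 0.05, beside 25.7% of all genes. The 3 higher compare with 2.22% of all genes called higher, and the 4 lower with 5.09% called lower. The median change of the 54 genes was 0.052, beside 0.026 over all genes, and no test set the group against other genes.

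Neuronal exon regulators made up the lower genes. Nova2 (chr7:18925888-18965319), which shapes exons of cortical neurons, had RNA at 65.9 and 62.2 CPM in WT, 43 and 57.5 without Fmr1, 33 and 52.4 without Cpeb1, and 91.7 and 69 without both. All 4 single knockout libraries lay below all 4 others, and library 1 differed more than library 2. The change was -0.662 ± 0.153 (SE; edgeR, adjusted p = 0.022), a 1.58-fold lower level. Nova1 stood at -0.22 ± 0.0895 and was not called (edgeR, adjusted p = 0.138).

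CELF proteins bind GU-rich sequence beside regulated exons. Celf3 (chr3:94478285-94496786), expressed mainly in the nervous system, had RNA at 69.7 and 86.4 CPM in WT, 63.5 and 65.9 without Fmr1, 45 and 59.7 without Cpeb1, and 95.2 and 83.7 without both. Its groups of 4 libraries did not overlap, and the change was -0.52 ± 0.118 (SE; edgeR, adjusted p = 0.0201).

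Celf5 (chr10:81459227-81482730) had RNA at 103 and 114 CPM in WT, 96 and 94.4 without Fmr1, 77.7 and 95.1 without Cpeb1, and 136 in each library without both. Again no single knockout library reached the lowest of the others, with a change of -0.432 ± 0.102 (SE; edgeR, adjusted p = 0.0232). Celf2 (chr2:6539694-7396341), the most abundant of the family, had RNA at 352 and 366 CPM in WT, 283 and 311 without Fmr1, 237 and 338 without Cpeb1, and 393 and 346 without both. The groups were apart by a small margin and the change was -0.326 ± 0.0916 (SE; edgeR, adjusted p = 0.0435). Of the other members, Celf4 stood at -0.233, Celf1 at -0.124 and Celf6 at 0.169, none of them called.

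SR and hnRNP genes made up the higher ones. Hnrnph1 (chr11:50375257-50386528), which binds G-rich runs, had RNA at 200 and 133 CPM in WT, 263 and 176 without Fmr1, 254 and 167 without Cpeb1, and 190 and 133 without both. Within each library number the single knockouts lay above the others, although the groups of 4 overlapped, as library 2 was lower than library 1 in every genotype. The change was 0.387 ± 0.0681 (SE; edgeR, adjusted p = 0.00872). Its close relative Hnrnph2 (chrX:134601179-134607060) had RNA at 196 and 132 CPM in WT, 199 and 168 without Fmr1, 224 and 181 without Cpeb1, and 180 and 138 without both. Its change was 0.267 ± 0.0778 (SE; edgeR, adjusted p = 0.0497), a call at the edge of the threshold that held under 2 of 15 alternatives. The counts of both H genes were not whole in any RNA library, so reads were divided between genes and the split between these near-identical ones is uncertain. Celf3 counts were not whole in any RNA library either.

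Srsf10 (chr4:135855752-135869908), an SR protein that represses splicing after heat shock, had RNA at 33.7 and 30.9 CPM in WT, 53.6 and 32.7 without Fmr1, 47.8 and 34.3 without Cpeb1, and 27.8 and 29.7 without both. The difference lay mostly in library 1, where it was 0.721 on the log2 scale, against 0.142 in library 2. The change in edgeR was 0.457 ± 0.12 (SE, adjusted p = 0.0343).

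**Figure D3:**
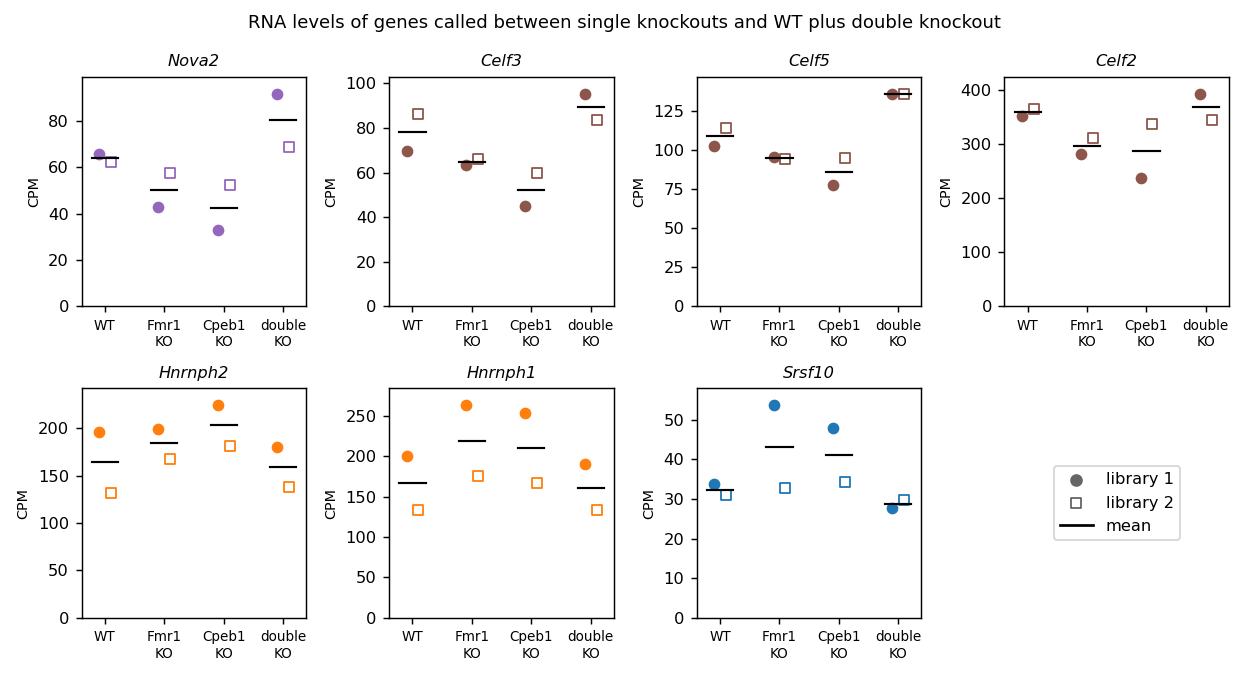
RNA level in CPM (y axis, from 0) of the 7 genes called between the single knockouts and the other genotypes, in each genotype, with a circle for library 1, a square for library 2 and a bar at their mean. Nova2, Celf3, Celf5 and Celf2 dip in the Fmr1 and Cpeb1 knockouts in both library numbers, and Srsf10, Hnrnph1 and Hnrnph2 peak there.

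Across the group, 6 of 54 genes had groups of 4 libraries that did not overlap, beside 12.1% of all genes, a count near the background. All 6 were lower in the single knockouts, and the directions over all genes were not counted. They were the 4 called lower with Elavl3 (-0.266 ± 0.0832; edgeR, adjusted p = 0.0633) and Hnrnpul1 (-0.203 ± 0.0796; edgeR, adjusted p = 0.125). In 45 of the 54 genes the difference had the same sign in libraries 1 and 2, beside 61.7% of all genes. The authors' deposited table for this comparison called 10 of 56 genes of the group, 2 higher and 8 lower, beside 9.09% of all genes. In the authors' deposited table Nova2 stood at -0.468, Celf3 at -0.413, Celf5 at -0.36, Celf2 at -0.269, Srsf10 at 0.315 and Hnrnph1 at 0.28, all called, and Hnrnph2 at 0.186 with an adjusted p of 0.0644. The same table also called Rbfox3, Elavl3, Celf4 and Hnrnpul1 lower.

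Most of these calls were lost when 1 of several libraries was left out. The count of 7 was 4 without WT library 1, 2 without Fmr1 knockout library 1, 4 without Fmr1 knockout library 2, 1 without Cpeb1 knockout library 1 and 1 without double knockout library 1, and Hnrnph1 was called in each of these. It was 3 in a fit without the library number as a block, where Hnrnph1 (adjusted p = 0.175 in edgeR) and the other higher genes were lost and Nova2, Celf3 and Celf5 were called. In a test of the interaction itself in the fit of 4 genotypes, which asks whether the effect of Fmr1 loss depends on Cpeb1, 3 genes were called in RNA, beside 2.06% of all genes. Celf3 changed on Fmr1 loss by -0.26 with Cpeb1 present and by 0.792 with Cpeb1 lost, a difference of 1.052 ± 0.211 (SE; edgeR, adjusted p = 0.0408). This is the contrast of the pooled comparison in another fit, not a separate line of evidence. The difference was 0.85 ± 0.169 for Celf5 and -0.773 ± 0.146 for Hnrnph1, each with an adjusted p of 0.0405 in edgeR.

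Other splicing genes were counted in the same comparison. Of 50 core spliceosome genes 3 were called higher and 1 lower, with a median of 0.111, a share near the 7.31% of all genes. Plrg1, of the activated spliceosome, rose by 0.288 and Sf3b4, of the branch-point complex, fell by 0.476. Of 41 other splicing regulators tested 3 were called higher and 6 lower. Fubp1 rose by 0.29, and Msi1, an RNA-binding protein of neural stem cells and glia, fell by 0.757. Srrm4 and Srrm3, which drive neuronal microexons, were among those called lower, at -0.583 and -0.478. Of the 7 SR protein kinases 0 were called, with 1 at an unadjusted p under 0.05.

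Cell type markers were read beside these values, since in bulk cortex fewer cells of a type and less RNA per cell cannot be told apart. None of the 10 neuron markers was called in this RNA comparison (edgeR; 1 at an unadjusted p under 0.05), with summed levels of 6040 to 6370 CPM in the single knockouts and 6060 to 6590 in the others. Of 8 astrocyte markers 1 was called higher (Gja1, 0.379), of 8 oligodendrocyte markers 1 lower (Olig1, -0.525) and of 7 endothelial markers 1 higher (Slco1c1, 0.565). Summed endothelial markers were 60.2 to 75.2 CPM in the 4 single knockout libraries and 43.5 to 60.1 in the 4 others, without overlap, while the median change of the 7 was 0.047. Summed microglia markers were 40.3 to 64.6 CPM in the single knockouts and 30.9 to 51.1 in the others, with 0 of 8 called in edgeR, 3 higher at an unadjusted p under 0.05 and a median change of 0.461. Their part in the result was not tested.

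Of the 11 genes called in any comparison between genotypes, 3 had a single RefSeq start at the edge of the gene with no other gene upstream, and the 100 bases before that start are shown for these, since Nova2, Hnrnph2 and Hnrnpa0 moved in different directions or assays. Sequences are from RefSeq, build GRCm38.p6, and read 5′ to 3′ on the gene's strand. Capitals mark the GC box, with the letters GGGCGG, and the CCAAT box, named for its letters. Both strands were searched, so that the reverse strand's letters of the GC box read CCGCCC here and those of the other box read ATTGG. The motifs do not overlap in these windows.
Nova2, chr7:18925788-18925887, plus strand: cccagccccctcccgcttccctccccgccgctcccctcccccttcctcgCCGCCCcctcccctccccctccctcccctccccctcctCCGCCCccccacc
Hnrnph2, chrX:134601079-134601178, plus strand: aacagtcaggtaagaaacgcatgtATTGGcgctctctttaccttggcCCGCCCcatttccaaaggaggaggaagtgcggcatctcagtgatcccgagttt
Hnrnpa0, chr13:58128557-58128656, minus strand: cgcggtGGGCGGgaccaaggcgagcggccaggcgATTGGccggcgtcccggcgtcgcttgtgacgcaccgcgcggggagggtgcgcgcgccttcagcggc
Nova2 holds 2 GC boxes and 0 CCAAT boxes, and the other two genes hold 1 of each. A GC box was found in 24.7% of the 32851 windows of this length in the table and in 49.4% of the 87 windows of 50 genes of the group. A CCAAT box was found in 18.9% and 29.9%. These matches are a description of the letters and were not tied to any measured value.

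In ribosome footprints the double knockout was also set against each single knockout, which was not done in edgeR for RNA. The authors' deposited RNA table called 4 of 56 genes higher and 0 lower against the Cpeb1 knockout, beside 3.04% of all genes. Against the Fmr1 knockout it called 2 higher and 0 lower, beside 1.34%. In footprints against WT, 0 of 55 genes were called on Fmr1 loss and 0 on Cpeb1 loss in edgeR, beside 0.0581% and 0.0799% of all genes. By direction these were 0.029% higher and 0.029% lower on Fmr1 loss. At an unadjusted p under 0.05 there were 3 and 0 genes, beside 5.09% and 3.88%, and DESeq2 called 0 in each. On Fmr1 loss Rbfox2 was at 0.233 ± 0.073 (SE; edgeR, adjusted p = 0.799) and Hnrnpr at -0.174 ± 0.0738, and on Cpeb1 loss Celf1 was at 0.093 ± 0.0671 and Hnrnpl at -0.128 ± 0.0692.

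Calls appeared in the double knockout, most of which rested on the library number as a block. In the double knockout 2 genes were called higher against WT and 0 lower, beside 2.65% of all genes (1.5% higher and 1.15% lower), with 15 at an unadjusted p under 0.05, beside 21%. Without the block 0 were called against WT. Against the Cpeb1 knockout 7 were called, 6 higher and 1 lower, beside 5.6% of all genes (3% higher and 2.61% lower), with 16 at an unadjusted p under 0.05, beside 24.6%. Against the Fmr1 knockout 0 were called in edgeR, beside 0.334% (0.189% higher and 0.145% lower), with 14 at an unadjusted p under 0.05, beside 15.9%, and 1 called in DESeq2. There Hnrnpa0 was at 0.458 ± 0.102 (edgeR, adjusted p = 0.068) and Ptbp2 at -0.255 ± 0.0674 (adjusted p = 0.114). The comparisons of the double knockout share its libraries and are not independent of each other.

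Higher footprints in the double knockout than in the Cpeb1 knockout were found for Hnrnpa0, Nova2, Srsf2, Celf5, Celf3 and Hnrnpul2, and lower ones for Elavl2. In RNA the same differences, in that order, stood at 0.185, 0.946, 0.37, 0.665, 0.792, 0.113 and -0.295, and were not tested. Hnrnpa0 (chr13:58125879-58128556), a single-exon hnRNP gene that binds AU-rich elements, had footprints at 182 and 166 CPM in WT, 153 and 180 without Fmr1, 137 and 174 without Cpeb1, and 206 and 252 without both. Both double knockout libraries lay above the other 6. The change against the Cpeb1 knockout was 0.557 ± 0.102 (SE; edgeR, adjusted p = 0.0166).

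Nova2 footprints stood at 129 and 127 CPM in WT, 134 and 150 without Fmr1, 107 and 136 without Cpeb1, and 168 and 172 without both. The double knockout libraries were again the highest, with a change of 0.489 ± 0.0908 against the Cpeb1 knockout (SE; edgeR, adjusted p = 0.0167) and of 0.409 ± 0.0907 against WT (adjusted p = 0.0385). Srsf2 (chr11:116849897-116853675), a classical SR protein also called SC35, showed 58.7 and 63.2 CPM in WT, 60.6 and 66.8 without Fmr1, 52.9 and 66.1 without Cpeb1, and 79.5 and 81.2 without both. Its change was 0.441 ± 0.092 against the Cpeb1 knockout (SE; edgeR, adjusted p = 0.0235) and 0.401 ± 0.0919 against WT (adjusted p = 0.0422).

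Celf3 and Celf5 rose together with Nova2. Celf3 footprints were at 71.3 and 75.2 CPM in WT, 79.7 and 85.7 without Fmr1, 66.1 and 72.4 without Cpeb1, and 84.4 and 91.2 without both, a change of 0.343 ± 0.0799 against the Cpeb1 knockout (SE; edgeR, adjusted p = 0.031). Celf5 footprints were at 133 and 113 CPM in WT, 131 and 146 without Fmr1, 103 and 117 without Cpeb1, and 135 and 157 without both, a change of 0.401 ± 0.104 (SE; edgeR, adjusted p = 0.0437). For these genes the Cpeb1 knockout and the double knockout did not overlap, while the Fmr1 knockout overlapped the double knockout.

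Hnrnpul2 (chr19:8819401-8834143), an hnRNP U relative, had footprints at 315 and 314 CPM in WT, 320 and 322 without Fmr1, 314 and 303 without Cpeb1, and 354 and 382 without both. Its change was small but its libraries agreed closely, at 0.255 ± 0.068 (SE; edgeR, adjusted p = 0.0477). Elavl2 (chr4:91211533-91400108), a neuronal Hu protein, was the gene called lower. Its footprints were at 163 and 152 CPM in WT, 155 and 146 without Fmr1, 165 and 152 without Cpeb1, and 136 and 125 without both, a change of -0.282 ± 0.0711 (SE; edgeR, adjusted p = 0.0392). Ptbp2 stood at 283 and 284 CPM in the double knockout and at 318 to 344 CPM in the other 6 libraries, with a change of -0.223 ± 0.0673 against the Cpeb1 knockout that was not called (edgeR, adjusted p = 0.0697).

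**Figure D4:**
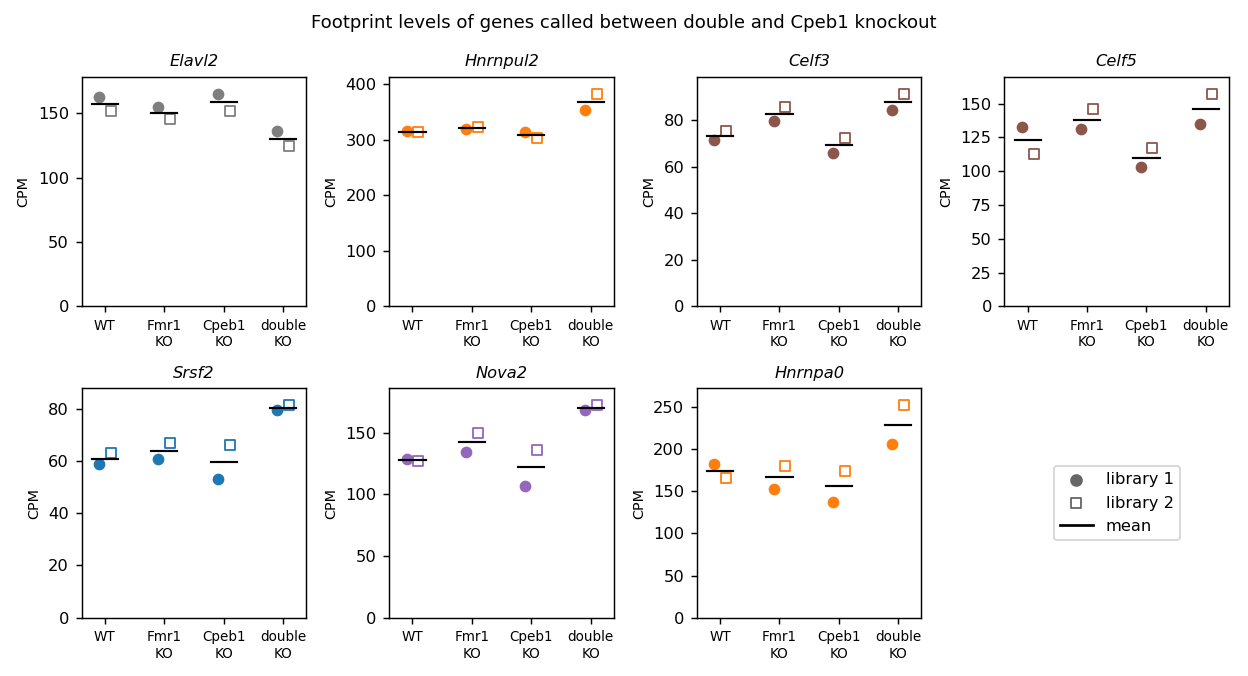
Footprint level in CPM (y axis, from 0) of the 7 genes called between the double knockout and the Cpeb1 knockout, in each genotype, with a circle for library 1, a square for library 2 and a bar at their mean. Hnrnpa0, Nova2, Srsf2 and Hnrnpul2 are highest in both double knockout libraries, and Elavl2 is lowest there.

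Groups of 2 libraries that did not overlap were common in footprints, at 31 of 55 genes for the double knockout against the Cpeb1 knockout, beside 52.4% of all genes, so that this separation is near the background. The median change of the 55 genes was 0.032, beside -0.012 over all genes. The count of 7 was 12 without WT library 1 or 2, 3 without Fmr1 knockout library 1, 4 without Fmr1 knockout library 2, and 0 without any 1 of the Cpeb1 or double knockout libraries, where 1 of the groups compared holds a single library whose spread is taken from the other genotypes. It was 1 without the library number as a block, namely Nova2. Of the genes called against WT, Nova2 and Srsf2, both stayed called without WT library 1 and neither without WT library 2, where WT holds a single library. Not both stayed called without Fmr1 knockout library 1. Neither was called without Fmr1 knockout library 2 or without any 1 of the Cpeb1 or double knockout libraries. Over all alternatives their changes ran from 0.313 to 0.512 for Nova2 and from 0.332 to 0.478 for Srsf2. The authors' deposited table for the double knockout against the Cpeb1 knockout called 9 of 57 genes, 7 higher and 2 lower, beside 7.73% of all genes. Against WT the authors' deposited table called 8 of 57, 6 higher and 2 lower, beside 4.9% of all genes, and against the Fmr1 knockout 3, 2 higher and 1 lower, beside 2.35%. The 7 genes above were among the 9, with Hnrnpa0 at 0.5, Nova2 at 0.43 and Srsf2 at 0.386 in the authors' deposited table, and the others were Celf4 (0.237) and Ptbp2 (-0.195).

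Related genes and cell type markers were read in the same footprint comparison. Of 50 core spliceosome genes 4 were called higher and 2 lower, beside the 5.6% of all genes, among them Snrpc, of the U1 particle, at 0.415, Snrpe at -0.439 and Sf3b6 at -0.369. Of 41 other splicing regulators 2 were called higher and 1 lower, among them Srrm3 at 0.481 and Matr3, a nuclear matrix protein gene, at -0.315. The astrocyte markers Gja1 and Slc1a3 were called lower, at -0.339 and -0.314, as was the microglia marker P2ry12 at -1.208, while the neuron marker Nefl was called higher at 0.395. Summed neuron markers in footprints were 10400 and 10600 CPM in the double knockout and 10300 and 9730 in the Cpeb1 knockout. Summed microglia markers were 22.8 and 36.7 CPM against 43.1 and 44.9. Their part in the result was not tested.

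The RNA pattern of the single knockouts was not called in footprints. For the single knockouts against the other genotypes 0 of 55 genes were called in footprints in edgeR and in DESeq2, beside 0% of all genes, with 2 at an unadjusted p under 0.05 beside 6.95%. Nova2 stood at -0.662 in RNA and -0.183 ± 0.114 in footprints, Celf3 at -0.52 and -0.084 ± 0.0941, Celf5 at -0.432 and -0.114 ± 0.111, and Celf2 at -0.326 and 0.072 ± 0.0521. The higher genes stood closer to 0 in footprints too, with Hnrnph1 at 0.099 ± 0.0714, Srsf10 at 0.131 ± 0.114 and Hnrnph2 at 0.011 ± 0.0614. All of these genes were chosen by their RNA change, so their RNA and footprint values are not an even comparison. The difference between the assays was tested as translational efficiency, the interaction of assay and genotype.

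In that test 0 of 54 genes were called for the single knockouts against the others, beside 0.115% of all genes, with 12 at an unadjusted p under 0.05, beside 12.5%. Translational efficiency in this comparison was 0.511 ± 0.211 for Nova2 (edgeR, adjusted p = 0.314), 0.467 ± 0.162 for Celf3 (adjusted p = 0.227), 0.422 ± 0.116 for Celf2 (adjusted p = 0.152) and -0.261 ± 0.123 for Hnrnph1 (adjusted p = 0.389). These values have the sign opposite to the RNA change, and the same RNA libraries enter both measures.

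For each knockout against WT, translational efficiency gave 0 called genes of the group in edgeR and in DESeq2. The background was 0.0154% of all genes on Fmr1 loss, 0% on Cpeb1 loss and 0.00768% with both lost. At an unadjusted p under 0.05 there were 4, 4 and 1 genes, beside 6.99%, 8.35% and 3.14% of all genes. Celf3 was at 0.458 ± 0.173 on Fmr1 loss (SE; edgeR, adjusted p = 0.668) and 0.517 ± 0.175 on Cpeb1 loss (adjusted p = 0.463), and Ptbp1 was at -0.688 ± 0.221 with both lost (adjusted p = 1). The authors' deposited table of translational efficiency (Xtail) for the Fmr1 knockout against WT called 5 of 56 genes, beside 2.96% of all genes. In the authors' deposited table these were Nova2 at 0.466, Celf3 at 0.415, Celf5 at 0.334 and Celf2 at 0.321, all higher, and Hnrnph1 at -0.333, lower. For Cpeb1 loss, the authors' deposited table called Nova2 at 0.473 and Celf3 at 0.46, beside 2.47% of all genes, and that for the double knockout against WT called 0 of 56.

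RNA of the hnRNP genes also varied with the library number. Library 2 was lower than library 1 in all 4 genotypes for 17 of the 20 hnRNP genes, beside 10.9% of all genes. The family's median difference, library 2 minus library 1 on the log2 scale, was -0.437 in WT, -0.321 without Fmr1, -0.194 without Cpeb1 and -0.244 without both. Hnrnpa2b1, for example, stood at 301 and 198 CPM in WT, 333 and 191 without Fmr1, 302 and 196 without Cpeb1, and 288 and 166 without both. No Celf, Nova, Ptbp, Mbnl or Elavl gene was lower in library 2 in all 4 genotypes. In footprints 2 of the 20 hnRNP genes were lower in library 2 throughout, beside 8.32% of all genes, and the family medians were -0.002, -0.149, -0.081 and 0.041. RNA libraries numbered 2 were the shallower ones in every genotype, and what else differed between the numbers is not stated in the labels. The part of depth in this difference was not tested.

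**Figure D5:**
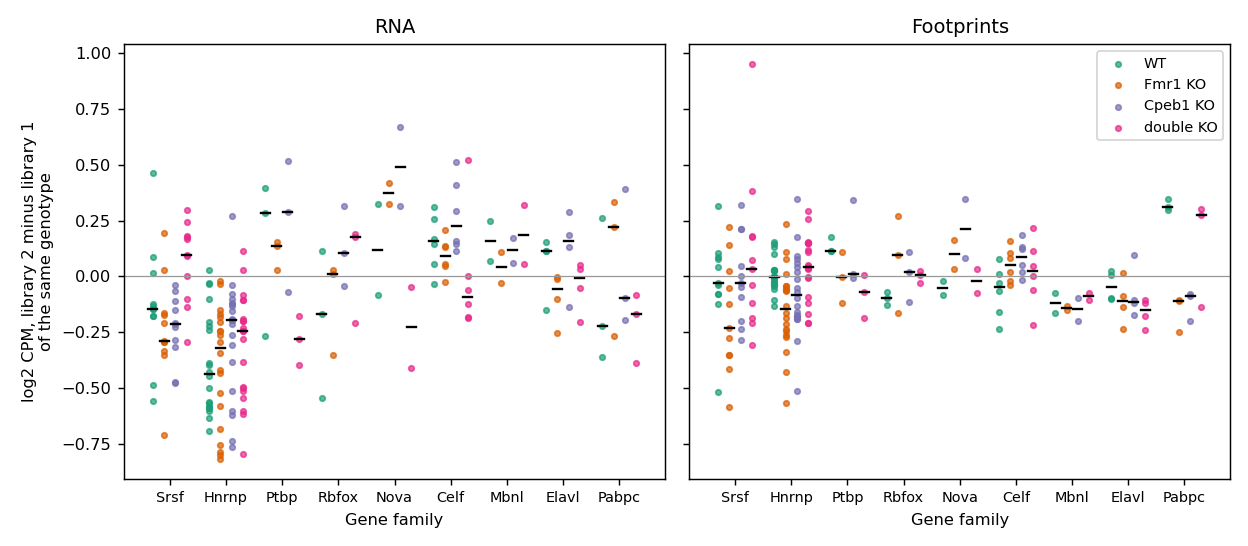
Difference between library 2 and library 1 of the same genotype (y axis, log2 CPM) for each gene by family, in RNA (left) and footprints (right), coloured by genotype, with a bar at the median of each family and genotype. The hnRNP medians lie below 0 in RNA in all 4 genotypes, and in footprints they lie between -0.149 and 0.041.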

How the data were processed

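RNA-seq and ribosome footprint libraries of mouse cortex, 2 per genotype and assay, were analysed from the authors' gene tables. Per the file headers, the deposited columns are those of RSEM: estimated counts, TPM and FPKM per gene, with feature lengths. The submitters' processing notes name cutadapt, Bowtie2, TopHat2, RSEM and DESeq2, without roles or versions, and build mm10. The authors' deposited comparison tables give log2 changes with p-values and adjusted p-values, a mean signal (baseMean) and a test statistic (score), and per the series' design text come from DESeq2 or Xtail. FPKM, the mean signal and the score were not used.

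Estimated counts were rounded and tested with edgeR 4.0.16 in R 4.3.3 (TMM scaling, filterByExpr with a minimum count of 10, quasi-likelihood test, library number as a block). Adjusted p-values (Benjamini-Hochberg, over all genes tested) under 0.05 count as called. Each SE was derived from that test, as the absolute log2 change divided by the square root of its F statistic. It is thus not a separate measure of spread. Each fit used the 8 libraries of its assay, and all 16 for translational efficiency and the WT baseline, the latter with effective lengths as offsets. CPM are rounded counts scaled by library size and TMM. Library-number differences used log2 CPM with a prior count of 2. Scripts were tested on simulated counts. The genes, lists and tests were chosen with earlier results of these data known. Named in each comparison were the called genes, at most 6 per direction (12 in the pooled RNA comparison and the baseline), and otherwise up to 2 of smallest p. From the other lists the called gene of smallest p per direction was named, and further list genes were chosen after their values were seen. Alternatives were no block, DESeq2 1.42.0, RLE scaling, other filters, a length correction, other sets of libraries and leaving out each library. RefSeq (GRCm38.p6) entries were found for all 59 genes, and promoter sequences for 50.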

Additional observations from a re-analysis of the deposited data

Results flagged for a closer look

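In RNA, the effect of Fmr1 loss differed with Cpeb1 for 3 genes by the interaction test of the 4 genotypes in edgeR, beside 2.06% of all genes. As stated above, that test is the contrast of the pooled comparison in another fit. The difference on the log2 scale, Cpeb1 lost minus Cpeb1 present, was 1.052 for Celf3, 0.85 for Celf5 and -0.773 for Hnrnph1. In footprints the same differences were 0.169, 0.237 and -0.203, none of them called, and the difference between the assays was not tested in this form.

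One value stood far from its group of 4 single knockout libraries. Celf5 RNA was 77.7 CPM in Cpeb1 knockout library 1, and its gap to the nearest value was 0.912 of the group's range. It was the 1 outlying value in 22 groups examined. Chance gives about 1 in 20 for 4 values of a single distribution. Each group here joined different genotypes and both library numbers, for genes named in the pooled comparisons, so that rate does not apply directly.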

How the results depend on the processing

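Library numbers did not meet the rule for pairing. Deviations of same-numbered libraries correlated at -0.039 to 0.307 in RNA and -0.065 to 0.33 in footprints over 6 pairs of genotypes, with 3 pairs over 0.1 in each. Without the replicate block the counts of called genes were 3 for the single knockouts against the others in RNA (7 with it), 0 for the double knockout against WT in footprints (2) and 1 against the Cpeb1 knockout (7). The first count was also 3 in the fit of 4 genotypes. Fits of the 2 genotypes alone gave 0, 11 and 5 in footprints for the double knockout against WT, the Cpeb1 knockout and the Fmr1 knockout (0 with all genotypes), and 1 in RNA for the Fmr1 knockout against WT (0). DESeq2 gave 4 against WT and 1 against the Fmr1 knockout in footprints, where no filter on counts also gave 1. Leaving out each library gave 1 to 10 for the single knockouts in RNA, 0 to 1 for the Cpeb1 knockout in RNA (1 without Cpeb1 knockout replicate 2), and 0 to 9, 0 to 12 and 0 to 3 for the double knockout in footprints against WT, the Cpeb1 knockout and the Fmr1 knockout. The WT baseline stayed at 44 to 50 called genes and the counts of 0 for translational efficiency held under every alternative run. Of 1425 values of named genes under alternatives, 1310 kept their direction and side of the threshold, 97 lost the call, 17 gained it and 1 reversed: Hnrnpa0 footprints in the Cpeb1 knockout against WT, 0.046 without WT replicate 1 (-0.174 with all libraries, and -0.379 to 0.046 over the libraries left out). The cause was not tested. With 2 libraries a group, precision is limited, and the RNA libraries are the shallower ones.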

Other observations

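Of the genes at the edge of detection, Mbnl3, the muscleblind gene known mostly from precursor cells, passed the filter in footprints but not in RNA. Its footprints were at 0.559 and 0.369 CPM in WT, 0.409 and 0.35 without Fmr1, 0.464 and 0.566 without Cpeb1, and 0.88 and 0.496 without both. Its RNA was listed at 0 in WT library 2 and Cpeb1 knockout library 2 and reached 0.726 CPM in double knockout library 1. Pabpc2 and Pabpc6 were at 0 in all 8 RNA libraries.

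Srsf5, the most abundant SR protein gene in WT RNA, had footprints that differed between library numbers, at 205 and 143 CPM in WT, 132 and 154 without Fmr1, 134 and 155 without Cpeb1, and 109 and 211 without both. Its RNA ran from 106 to 156 CPM.

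Ptbp1, which stood at 14.3 TPM of RNA in WT, had RNA at 13.7 and 18 CPM in WT, 24.3 and 21.5 CPM in the double knockout, and 13.9 to 19.9 CPM in the single knockouts. Its change in the double knockout was 0.561 ± 0.19 (SE; edgeR, adjusted p = 0.966). Its footprints were at 22.9 and 24.8 CPM in WT and 22.6 and 21.5 CPM in the double knockout.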
